A study of Mus musculus with 24 samples.

Results

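The genes described here encode the factors that start and extend protein synthesis on cytoplasmic ribosomes. They were chosen by symbol alone, as the protein-coding mouse genes of the count tables whose symbol begins with Eif1 to Eif6, Eef1 or Eef2, with pseudogenes left out. The choice gave 67 of the 46603 annotated genes, and the tables list 126602 features in all, since 79999 loci assembled from the reads are counted beside the annotated genes. The samples were 24 mouse retinal organoids (MROs), which are pieces of retinal tissue grown in culture from pluripotent stem cells, 6 each of days 20, 22, 25 and 30 of differentiation, called D20, D22, D25 and D30. All groups shared the same material and handling: the wildtype mouse embryonic stem cell line E14Tg2a, control conditions with only the solvent water added, and a trisection protocol in which cell aggregates are cut into pieces. The sample titles of D22, D25 and D30 add the word Ctrl, which those of D20 lack. Each library was made from the total RNA of 1 whole organoid after removal of ribosomal RNA. The study followed these organoids from the end of retinal cell birth onward to ask how their transcriptome changes with age. As all organoids came from 1 independent experiment and 1 cell line, p-values measure the spread between organoids of that experiment.

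Initiation begins when eIF2, carrying GTP and the initiator methionine tRNA, joins the small ribosomal subunit together with eIF1, eIF1A, eIF3 and eIF5, while the eIF4 factors bind the mRNA cap and bring the message to that complex. eIF2B recharges eIF2 with GTP, and a set of kinases that each respond to a different stress phosphorylate eIF2 and thereby block the recharging. During elongation eEF1A delivers aminoacyl tRNA, eEF1B recharges eEF1A, eEF2 moves the ribosome along the message and eIF5A eases peptide bond formation at difficult sequences. In the retina, photoreceptors are known for a high demand on protein synthesis, since they renew their light-sensing membranes throughout life.

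The depth was 13634846 to 19477108 reads on features in an organoid. Levels are given as normalized CPM, the count scaled to the library size after TMM adjustment, on which 3 counts are worth 0.166 to 0.216. Of the 67 genes, 64 reached the minimum mean of 10 normalized counts for a test. The tissue label was checked against markers. Of 8 tested photoreceptor genes 7 were higher at D30 than at D20, and their summed level rose from a median of 1317 normalized CPM at D20 (927 to 1473) to 5079 at D30 (3088 to 5449). The 6 progenitor genes were all lower, with sums of 817 to 1125 at D20 and 139 to 224 at D30, as were the 6 genes of dividing cells, with sums of 772 to 1296 and 292 to 493. Müller glia genes were higher in 5 of 6 and neuronal genes in 4 of 6. Genes of the pigment epithelium summed to between 35.0 and 2673 normalized CPM at D30, against 9.99 to 49.2 at D20. This sum mainly followed 1 gene, Ttr, with a mean of 987 and an SD of 1217 at D30. The D30 means of Mitf, Pmel and Tyr were 17.6, 7.25 and 6.43. Rpe65 had 3 counts or fewer in every organoid. Between D30 and D20, Ttr and Mitf were higher, and Tyr and Pmel did not pass. Striated muscle genes reached at most 5.82 normalized CPM in any organoid. The 4 cerebral cortex genes had a median sum of 24.8 at D20 and 6.3 at D22, against 75.4 at D25 and 134 at D30. Single organoids lay between 1.72 and 215, and 0 of 4 passed between D30 and D20. Neurod6 was the largest part of this sum, with means of 40.0, 3.41, 76.0 and 93.7 in the order of the timepoints. The means of Emx1, Tbr1 and Eomes did not exceed 6.01 at any timepoint. The paper names Neurod6 as a gene of postmitotic amacrine cells, which are retinal neurons, so the sum does not single out cortical tissue. Since a whole organoid was sequenced, fewer cells of a type and less RNA per cell cannot be told apart in any value below, and the part of these shifting cell types in the results was not tested.

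From D20 to D30 the translation factors took a shrinking share of the reads. They held 1.588% ± 0.084 (SD, n = 6) of the reads on annotated genes at D20. The share was 1.341% ± 0.112 at D22, 1.165% ± 0.041 at D25 and then 1.083% ± 0.047 at D30. The organoids at D20 ranged from 1.494% to 1.737% and those at D30 from 1.006% to 1.139%, so the timepoints did not overlap. The 8 elongation factors went from 0.644% to 0.307% on average, and the 14 eIF3 subunits from 0.301% to 0.204%. Without Eef1a1, Eef2 and Eef1b2, the other 64 genes held 1.006% ± 0.021 at D20 and 0.830% ± 0.022 at D30. Within the reads of all 67 genes, the elongation factors had a median share of 40.6% at D20 and 29.1% at D30.

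**Figure D1:**
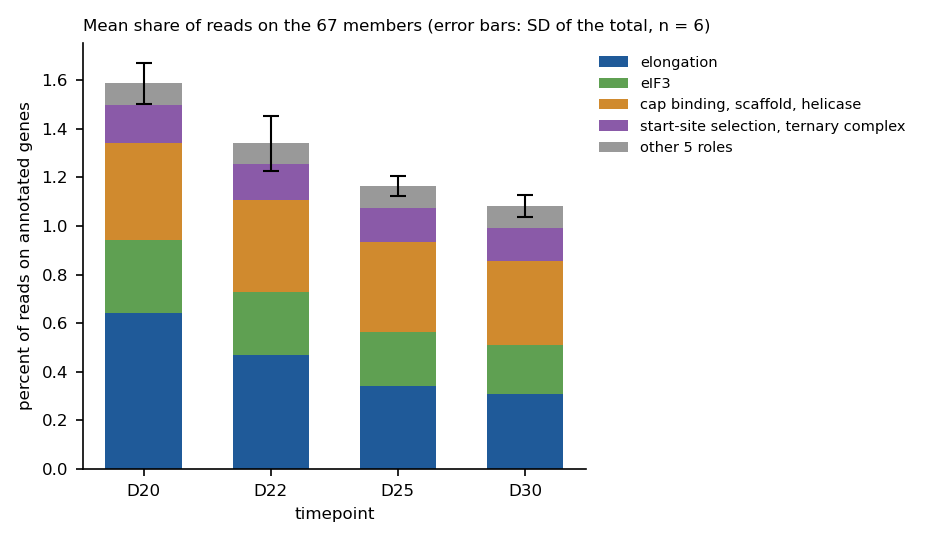
Mean share of the reads on annotated genes (percent, axis from 0) held by the 67 translation factors at each timepoint, stacked by role, with error bars for the SD of the total (n = 6). The total shrinks from 1.588% at D20 to 1.083% at D30, and the elongation factors at the base shrink from 0.644% to 0.307%.

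Compared between D30 and D20, 8 genes were higher and 20 were lower at an adjusted p under 0.01 (edgeR's quasi-likelihood test with p-values adjusted by Benjamini-Hochberg across the 46949 tested features). These 28 genes are 43.8% of the 64 tested, against 26.8% of all features and 41.8% of the 16253 annotated genes, so the share called was close to that of annotated genes. The direction differed from theirs: 31.2% of the translation factors were lower and 12.5% higher, whereas 16.7% of annotated genes were lower and 25.1% higher. The median log2 fold change was -0.12 over the 64 genes and 0.10 over the annotated genes. With the fit on annotated genes only, 5 were higher and 27 lower, the median over the 64 genes was -0.21 and that over annotated genes was 0.01. DESeq2's test called 11 higher and 18 lower, with medians of -0.06 and 0.16. The median of the translation factors minus that of annotated genes was -0.224 in the main fit and -0.225 with DESeq2's test. With annotated genes only it was -0.223. This gap was thus nearly the same in these fits, and the shares of annotated genes called under the alternatives are not given here. With DESeq2's size factors in edgeR, 9 were higher and 18 lower. The organoids of D20 and D30 did not overlap for 16 lower and 5 higher genes, and 12.7% and 17.0% of annotated genes were separated in these directions. A joint test of all 4 timepoints called 28 genes, which is 43.8% of those tested against 27.2% of all features and 43.9% of annotated genes, and 24 of them were also called between D30 and D20. The other 4, called by the joint test alone, were Eif4e3 (adjusted p = 0.001997), Eif5a2 (0.003799), Eif4a3 (0.006698) and Eif2s3y (0.007595). Counts by role below stand against 16.7% of annotated genes lower and 25.1% higher between D30 and D20. No role was tested against these shares.

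**Figure D2:**
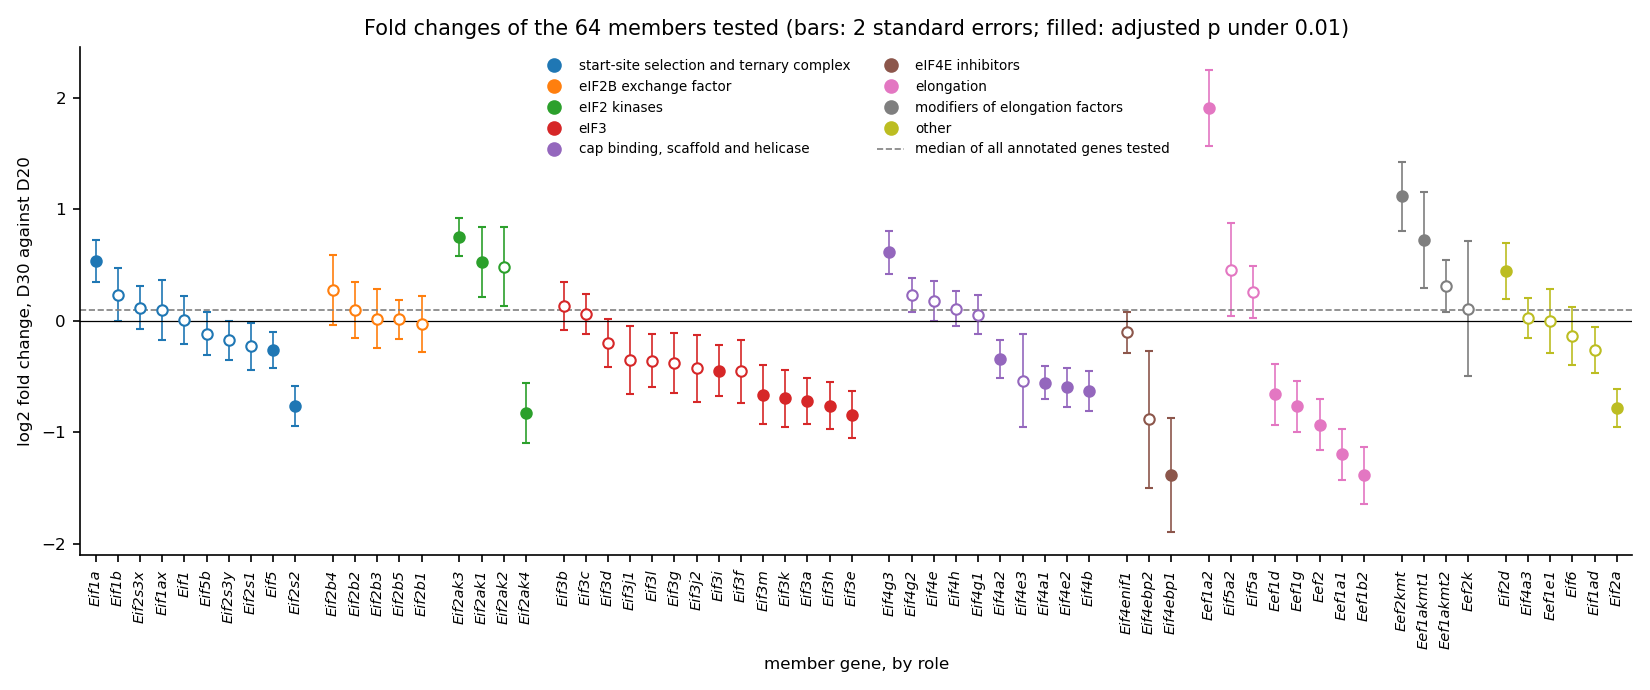
Log2 fold change, D30 against D20, of each of the 64 tested translation factors, coloured by role, with bars of 2 standard errors, filled points for an adjusted p under 0.01 and a dashed line at the median of annotated genes. The 6 called eIF3 subunits and 5 of the 6 called elongation factors lie below 0, while Eef1a2 stands highest at 1.91.

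Several of the largest falls were among the elongation factors. Of the 8 tested, 5 were lower (Eef1a1, Eef1b2, Eef1d, Eef1g and Eef2), Eef1a2 was higher, and neither Eif5a nor Eif5a2 passed the test, with a median log2 fold change of -0.71. Eef1a1 (ENSMUSG00000037742, chr9:78478449-78489151, minus strand), the widely used form of eEF1A, had the highest level per exon length of all 67 genes, at 588 normalized CPM per kilobase over all organoids. It ranged from 1929 to 2619 normalized CPM at D20 (median 2281), 1230 to 2115 at D22 (median 1521), 944 to 1232 at D25 (median 1092) and 792 to 1146 at D30 (median 1015). Every organoid at D25 and D30 was under the lowest at D20. The log2 fold change between D30 and D20 was -1.20 ± 0.11 (SE, adjusted p = 8.669e-10 by edgeR's quasi-likelihood test). Reads aligning to more than 1 place were not counted, so the levels of genes with near-identical pseudogenes, such as Eef1a1, are uncertain.

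Eef2, the translocase that moves the ribosome along the message, was second per exon length at 373 normalized CPM per kilobase. Its level ranged from 1457 to 2180 normalized CPM at D20 (median 1721), 1093 to 1635 at D22 (median 1279), 862 to 1087 at D25 (median 975) and 683 to 1056 at D30 (median 953). Again all organoids at D25 and D30 were under those at D20. The log2 fold change was -0.93 ± 0.11 (adjusted p = 9.815e-08). Eef1b2, a subunit of the exchange factor that recharges eEF1A, had the most negative log2 fold change of the 64 genes, -1.38 ± 0.13 (adjusted p = 4.361e-10), a value that Eif4ebp1 nearly matched. Its organoids ranged from 912 to 1169 normalized CPM at D20 (median 976), 502 to 1020 at D22 (median 639), 371 to 478 at D25 (median 428) and 301 to 475 at D30 (median 382). The D22 organoids spread across the gap, and those of D25 and D30 lay below every organoid at D20. An exon of Ndufs1 overlaps Eef1b2 on the opposite strand. The paper describes strand-specific libraries, but the use of strand in the counting is not given in the sources used here. How far reads of the pair were told apart is therefore uncertain.

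The other subunits of the eEF1B complex were also lower. Eef1g ranged from 190 to 288 normalized CPM at D20 (median 237) and 123 to 157 at D30 (median 134), with a log2 fold change of -0.77 ± 0.11 (adjusted p = 2.908e-06). Eef1d ranged from 133 to 169 at D20 (median 147) and 70.3 to 118 at D30 (median 92.3), with a log2 fold change of -0.66 ± 0.14 (adjusted p = 0.0002935). Neither gene's organoids overlapped between these timepoints. Eef1d shares exon sequence on the same strand with Naprt.

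Eef1a2 (ENSMUSG00000016349, chr2:181147653-181157014, minus strand), the form of eEF1A that neurons and muscle use in adult animals, moved the other way. Its organoids ranged from 20.98 to 38.2 normalized CPM at D20 (median 34.5), 34.2 to 80.3 at D22 (median 56.8), 76.1 to 109 at D25 (median 91.4) and 89.8 to 161 at D30 (median 124). No organoid at D25 or D30 was as low as any at D20. The log2 fold change between D30 and D20 was 1.91 ± 0.17 (adjusted p = 2.218e-10), which is the largest rise among the 64 genes. Eif5a, which helps ribosomes past difficult peptide bonds, ranged from 83.2 to 106 normalized CPM at D20 (median 98.1), 79.0 to 99.2 at D22 (median 92.3), 92.3 to 119 at D25 (median 110) and 86.6 to 149 at D30 (median 108). Eif5a2, its less used copy, ranged from 10.6 to 22.9 at D20 (median 19.7), 6.11 to 18.7 at D22 (median 14.0), 15.1 to 19.9 at D25 (median 16.7) and 17.3 to 30.2 at D30 (median 26.4). For both the organoids of D20 and D30 overlapped, and adjusted p was 0.08114 for Eif5a and 0.08576 for Eif5a2.

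**Figure D3:**
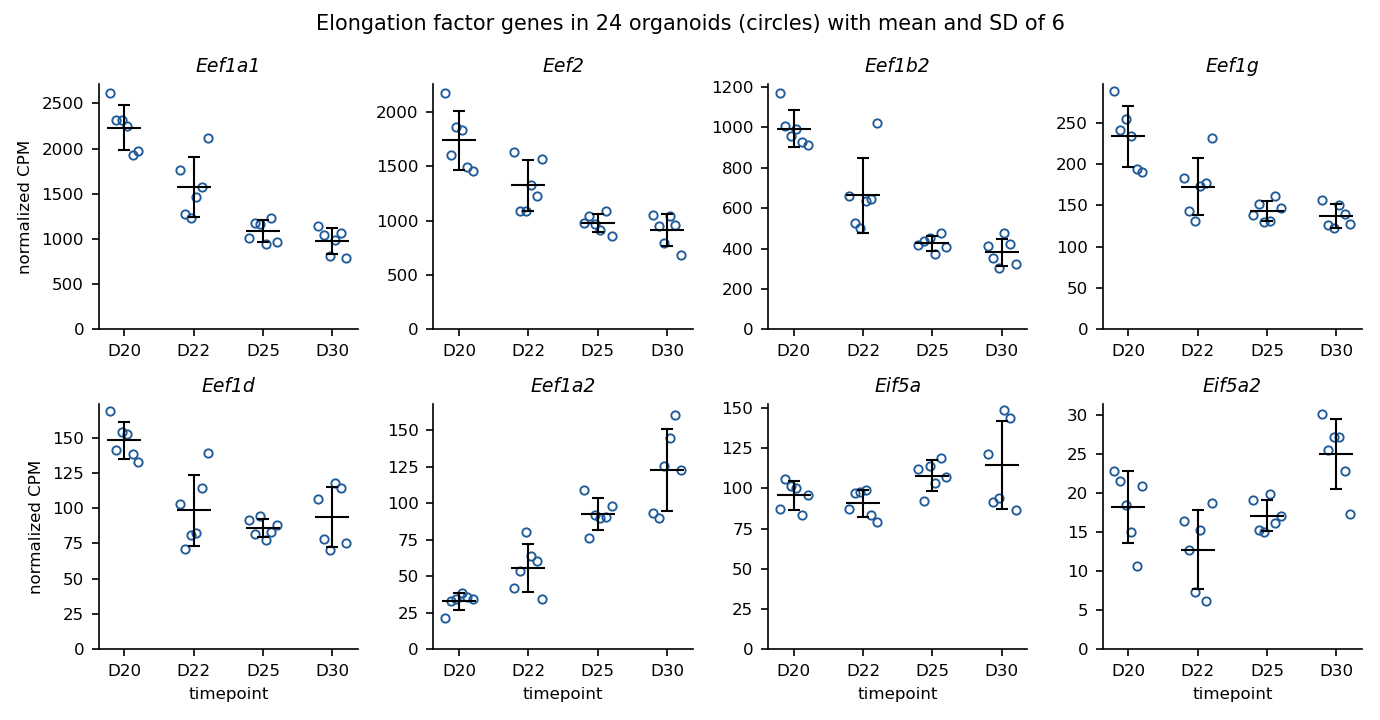
Normalized CPM (linear axes from 0, 1 scale per gene) of the 8 elongation factors by timepoint, with circles for the 24 organoids and bars for the mean and SD of 6. Eef1a1, Eef2 and Eef1b2 step down up to D25, while Eef1a2 climbs from a median of 34.5 to 124.

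Messages of many translation factors begin with a 5′ terminal oligopyrimidine (TOP) stretch, through which the mTORC1 pathway controls their translation. A stretch was searched as a C followed by at least 6 bases that are each C or T, on the sense strand, starting within 15 bases of a gene's RefSeq start. Such letters were found in 16 of the 51 genes with a promoter entry (31.4%), against 19.4% of the 27025 genes in that table. The windows below are shown because they belong to elongation factors with high levels or large changes, and the capitals mark the stretch. They are 30 bases each, 5′ to 3′ on the gene's strand, from RefSeq on GRCm38.p6. The Eef1a1 window is chr9:78481705-78481734 (minus strand) and that of Eef1a2 is chr2:181157005-181157034 (minus strand). The Eef1b2 window is chr1:63176821-63176850 (plus strand), begins 10 bases before the annotated start and holds no stretch of this kind.
Eef1a1: ctccgCCCTCTTCCCgagggtgggggagaa
Eef1a2: tttttCTCTCCTggtctgcgttctcgctca
Eef1b2: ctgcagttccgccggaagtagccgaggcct
The stretch is present near the start both of Eef1a1, which was lower at D30, and of Eef1a2, which was higher. In Eef1a1 it is 10 bases long, begins at -5 bases from the annotated start and runs across it. By that annotation its first letters lie outside the message, which begins with a T. In Eef1a2 it is 7 bases long, begins at -14 bases and ends before the annotated start. By that annotation the Eef1a2 letters are not part of the message. Of the 16 genes with a stretch, 5 were lower, among them Eef1a1, Eif2ak4, Eif3k and Eif4b, Eef1a2 was higher and 10 did not pass the test. The stretches of Eif3k and Eif4b begin 13 and 10 bases after the annotated start. That of Eif2ak4 begins 3 bases after an annotated start, and its other entry has none. The search thus finds letters near a start and does not show that they form the end of a message. Of the 35 without it, 9 were lower, 5 were higher and 21 did not pass.

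The balance between the 2 forms of eEF1A was read from their counts in the same organoid. Eef1a2 made up 0.796% to 1.8% of the pair's reads at D20 (median 1.57%), 1.59% to 6.13% at D22 (median 3.85%), 6.1% to 9.69% at D25 (median 7.99%) and 7.52% to 13.4% at D30 (median 13.0%). The timepoints D20 and D25 did not overlap, nor did D20 and D30, while the share at D22 overlapped both D20 and D25. The log2 ratio of Eef1a2 to Eef1a1 was -6.11 ± 0.44 (SD, n = 6) at D20 and -3.01 ± 0.45 at D30, a difference of 3.10 or 8.58-fold. An exact two-sided permutation test over the 924 splits gave p = 0.00216, the smallest p that 6 against 6 organoids allow. Since both genes had already passed the test in opposite directions, this p adds no independent evidence.

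**Figure D4:**
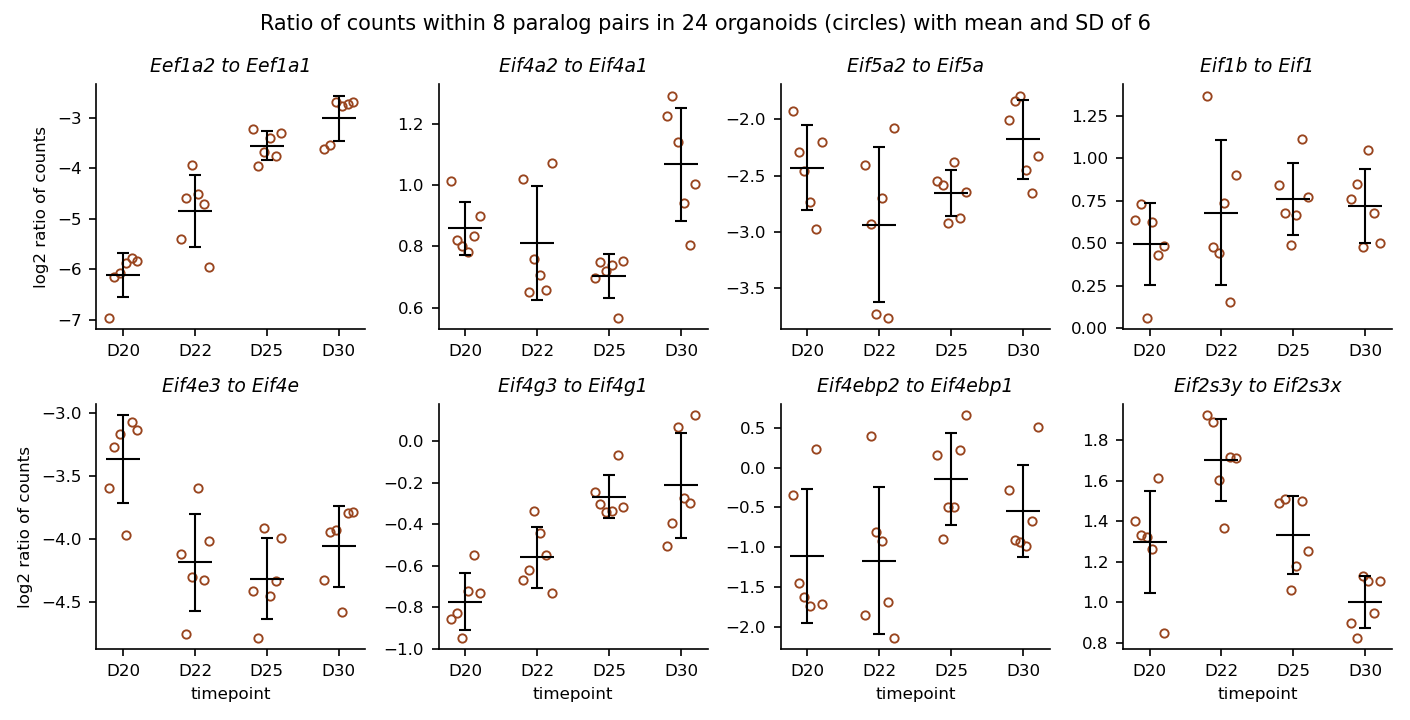
Log2 ratio of counts within 8 pairs of related translation factors by timepoint, with circles for the 24 organoids, bars for the mean and SD of 6, and an axis of its own for each pair that need not include 0. The ratio of Eef1a2 to Eef1a1 climbs from a mean of -6.11 to -3.01, and that of Eif4g3 to Eif4g1 is also separated between D20 and D30.

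eIF3, the large scaffold that holds the small ribosomal subunit ready for the message, was lower in 6 of its 14 genes (Eif3a, Eif3e, Eif3h, Eif3i, Eif3k and Eif3m), and none was higher. The log2 fold change was negative in 12 of 14, with a median of -0.44. Eif3e fell most. It ranged from 323 to 420 normalized CPM at D20 (median 335), 229 to 379 at D22 (median 285), 188 to 242 at D25 (median 199) and 180 to 227 at D30 (median 185), so every organoid at D25 and D30 was below D20. The log2 fold change was -0.84 ± 0.11 (adjusted p = 1.757e-07). Eif3a, the core subunit with the most reads of the complex, ranged from 821 to 987 normalized CPM at D20 (median 859) and 447 to 611 at D30 (median 533), with a log2 fold change of -0.72 ± 0.11 (adjusted p = 2.117e-06). Eif3h, Eif3k, Eif3m and Eif3i followed with log2 fold changes of -0.76, -0.70, -0.66 and -0.45, and the organoids of D20 and D30 overlapped only for Eif3i and Eif3m among the 6.

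The other 8 eIF3 genes did not pass the test. Eif3c, which binds next to Eif3a in the core, ranged from 315 to 343 normalized CPM at D20 (median 331), 254 to 364 at D22 (median 333), 320 to 387 at D25 (median 344) and 286 to 428 at D30 (median 322), with a log2 fold change of 0.06 ± 0.09. Its sign turned with the fit on annotated genes only, where the value was -0.029. Eif3b, the other core subunit, had a log2 fold change of 0.13, and those of Eif3d, Eif3f, Eif3g, Eif3j1, Eif3j2 and Eif3l lay between -0.45 and -0.20. Eif3j1 and Eif3j2 are near-identical copies, so their reads may have been split or dropped by the counting.

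Among the 10 tested genes for cap binding, scaffold and helicase, 4 were lower (Eif4a1, Eif4a2, Eif4b and Eif4e2) and Eif4g3 was higher, with a median log2 fold change of -0.14. Eif4a1, the helicase that unwinds the start of the message, ranged from 384 to 465 normalized CPM at D20 (median 406), 354 to 411 at D22 (median 386), 317 to 415 at D25 (median 343) and 262 to 318 at D30 (median 271). The groups D20 and D30 did not overlap, and the log2 fold change was -0.56 ± 0.07 (adjusted p = 4.889e-07). Its close relative Eif4a2, the fourth highest gene per exon length, ranged from 687 to 822 at D20 (median 749), 603 to 863 at D22 (median 625), 529 to 614 at D25 (median 560) and 530 to 693 at D30 (median 566), with a log2 fold change of -0.34 ± 0.09 (adjusted p = 0.001804). Here the highest organoid at D30 reached into the D20 range. DESeq2's test gave an adjusted p of 0.01404 for Eif4a2, which does not pass. Several small nucleolar RNAs lie within Eif4a2 and an exon of Rfc4 lies on its opposite strand, so its reads are uncertain. Eif4b, which stimulates the helicase, ranged from 502 to 636 at D20 (median 568), 403 to 569 at D22 (median 472), 357 to 443 at D25 (median 378) and 312 to 432 at D30 (median 364), with a log2 fold change of -0.63 ± 0.09 (adjusted p = 1.156e-06) and no overlap between D20 and D30.

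Eif4e, the cap-binding protein itself, did not pass the test. It ranged from 86.4 to 116 normalized CPM at D20 (median 106), 94.8 to 117 at D22 (median 102), 97.9 to 123 at D25 (median 107) and 108 to 141 at D30 (median 113), with an adjusted p of 0.1294. Eif4e2, a relative that binds the cap and tends to keep messages from being translated, was lower, from 128 to 146 at D20 (median 138) to 77.6 to 111 at D30 (median 89.96), a log2 fold change of -0.60 ± 0.09 (adjusted p = 1.739e-06). Those groups were separate. Eif4e3, a further cap-binding relative, was low throughout, at 6.4 to 12.9 at D20 (median 11.1), 3.84 to 8.21 at D22 (median 5.38), 3.7 to 6.83 at D25 (median 5.84) and 4.75 to 8.09 at D30 (median 7.53), with an adjusted p of 0.04073 for D30 against D20.

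Of the scaffold proteins that join the cap to the ribosome, Eif4g3 was higher and Eif4g1 did not pass the test. Eif4g3 ranged from 135 to 173 normalized CPM at D20 (median 160), 141 to 219 at D22 (median 187), 218 to 261 at D25 (median 240) and 199 to 274 at D30 (median 244), without overlap between D20 and D30 (log2 fold change 0.61 ± 0.10, adjusted p = 8.07e-06). Eif4g1 ranged from 239 to 297 at D20 (median 264), 224 to 295 at D22 (median 267), 268 to 302 at D25 (median 283) and 234 to 337 at D30 (median 276). Its log2 fold change was 0.06 ± 0.09, and -0.039 with the fit on annotated genes only. Eif4g2, which supports initiation without the cap, and Eif4h, a partner of the helicase, had log2 fold changes of 0.23 and 0.11 that did not pass.

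Among the genes for proteins that hold eIF4E back, Eif4ebp1 and Eif4ebp2 had low levels. Eif4ebp1, which releases eIF4E when mTORC1 phosphorylates it, ranged from 5.62 to 11.4 normalized CPM at D20 (median 8.08), 3.77 to 11.8 at D22 (median 5.14), 2.62 to 4.34 at D25 (median 3.77) and 1.83 to 4.16 at D30 (median 3.45). All organoids of D25 and D30 lay under those of D20, and the log2 fold change of D30 against D20 was -1.38 ± 0.26 (adjusted p = 6.382e-05). Eif4ebp2, the form that neurons favour, ranged from 2.31 to 6.62 at D20 (median 3.44), 1.41 to 4.96 at D22 (median 2.45), 1.67 to 5.05 at D25 (median 3.54) and 1.74 to 2.91 at D30 (median 2.08). Its adjusted p was 0.02212, and 0.009323 with the fit on annotated genes only. Eif4enif1, which carries eIF4E into the nucleus, had more reads, with means of 55.1 normalized CPM at D20 and 51.3 at D30. It did not pass, with a log2 fold change of -0.10.

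Among the 10 genes for start-site selection and the ternary complex, Eif1a was higher, Eif2s2 and Eif5 were lower and 7 did not pass, with a median log2 fold change of -0.05. Eif1a, one of the genes for eIF1A, which keeps the scanning ribosome open, ranged from 57.8 to 77.0 normalized CPM at D20 (median 69.0), 65.2 to 84.0 at D22 (median 66.9), 71.3 to 86.1 at D25 (median 73.6) and 87.5 to 112 at D30 (median 99.02). Only the D30 organoids stood above all others, and the log2 fold change was 0.54 ± 0.09 (adjusted p = 3.317e-05). Eif2s2, the beta subunit of eIF2, ranged from 212 to 258 at D20 (median 223), 166 to 237 at D22 (median 173), 131 to 169 at D25 (median 143) and 124 to 152 at D30 (median 132). Its organoids at D25 and D30 lay below D20, with a log2 fold change of -0.77 ± 0.09 (adjusted p = 4.653e-08). The alpha subunit Eif2s1 had a log2 fold change of -0.23 and did not pass.

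The gamma subunit of eIF2 is encoded on both sex chromosomes. Eif2s3x ranged from 60.8 to 82.0 normalized CPM at D20 (median 70.5), 54.2 to 73.9 at D22 (median 57.5), 63.6 to 74.8 at D25 (median 68.1) and 67.5 to 85.4 at D30 (median 76.6). Eif2s3y ranged from 148 to 193 at D20 (median 174), 175 to 222 at D22 (median 196), 156 to 186 at D25 (median 175) and 141 to 183 at D30 (median 147). Both had reads in every organoid, and neither passed the test between D30 and D20, at adjusted p of 0.3529 and 0.1129. Eif1, the fidelity factor for the start codon, ranged from 32.8 to 37.6 at D20 (median 35.4), 24.5 to 43.6 at D22 (median 32.6), 31.9 to 37.5 at D25 (median 33.3) and 31.4 to 38.7 at D30 (median 35.9), and its log2 fold change of 0.01 was -0.081 with the fit on annotated genes only. Its copy Eif1b ranged from 39.0 to 58.5 at D20 (median 51.4), 44.9 to 63.4 at D22 (median 51.7), 50.5 to 70.1 at D25 (median 56.2) and 44.5 to 71.6 at D30 (median 60.0), with an adjusted p of 0.1255. These 4 genes overlapped between D20 and D30.

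Eif5, which makes eIF2 hydrolyse its GTP at the start codon, had a log2 fold change of -0.26 ± 0.08 (adjusted p = 0.009315), just inside the threshold. It did not hold when single organoids were left out: adjusted p reached 0.03839, and the call ended without D20 organoid 1, 2, 3, 5 or 6, D22 organoid 1, 4 or 5, D25 organoid 2, 3, 4 or 6, or D30 organoid 2, 3, 4, 5 or 6. Eif1ax and Eif5b, which complete scanning and subunit joining, had log2 fold changes of 0.10 and -0.11. None of the 5 subunits of eIF2B passed, with log2 fold changes between -0.03 and 0.28 and a median of 0.02.

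The 4 eIF2 kinases split. Eif2ak3, also called PERK, the kinase that answers unfolded protein in the endoplasmic reticulum, ranged from 54.7 to 73.6 normalized CPM at D20 (median 64.01), 56.9 to 62.9 at D22 (median 60.4), 77.3 to 84.0 at D25 (median 80.3) and 91.6 to 123 at D30 (median 107). The D25 organoids lay above all earlier ones and the D30 organoids above all of D25. The log2 fold change of D30 against D20 was 0.75 ± 0.09 (adjusted p = 2.6e-08). Eif2ak4, also called GCN2, which senses uncharged tRNA when amino acids run short, went down, from 38.4 to 61.3 at D20 (median 45.7), through 28.5 to 44.3 at D22 (median 37.7) and 24.2 to 35.6 at D25 (median 28.9), to 18.3 to 31.0 at D30 (median 28.1). Its organoids at D25 and D30 were below D20, and the log2 fold change was -0.83 ± 0.13 (adjusted p = 1.025e-05).

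Eif2ak1, the kinase that responds to heme shortage, ranged from 19.5 to 31.4 normalized CPM at D20 (median 23.6), 15.8 to 26.3 at D22 (median 20.8), 20.9 to 31.9 at D25 (median 28.0) and 25.8 to 46.8 at D30 (median 33.0). The groups overlapped, with a log2 fold change of 0.53 ± 0.16 (adjusted p = 0.008063). This call ended without D20 organoid 1, 2, 4 or 6 or D30 organoid 1, 2 or 5, with adjusted p up to 0.03327. It also ended with the replicate number as a block (adjusted p = 0.01541), with annotated genes only (0.01616), without the filter on low counts (0.01147) and with the compared timepoints only (0.02208). Exons of Aimp2 and Ankrd61 lie on its opposite strand. Eif2ak2, also called PKR, which binds double-stranded RNA, ranged from 8.46 to 20.2 at D20 (median 17.1), 13.4 to 22.0 at D22 (median 18.7), 12.7 to 24.6 at D25 (median 20.6) and 18.1 to 28.9 at D30 (median 21.2). Its adjusted p of 0.02971 did not pass, while DESeq2's test gave 0.008858.

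Among the 4 tested genes that modify elongation factors, 2 were higher and none was lower, against 25.1% and 16.7% of annotated genes. So few genes cannot be set apart from these shares. Eef2kmt, which methylates eEF2, rose from 12.2 to 20.2 normalized CPM at D20 (median 17.8) through 19.3 to 24.4 at D22 (median 21.8) and 23.5 to 33.0 at D25 (median 28.6) to 25.9 to 50.1 at D30 (median 35.1). The D25 and D30 organoids lay above all of D20, with a log2 fold change of 1.12 ± 0.15 (adjusted p = 8.854e-07). An exon of Alg1 overlaps it on the opposite strand. Eef1akmt1, a lysine methyltransferase for eEF1A, ranged from 3.22 to 7.15 at D20 (median 4.54), 3.31 to 6.85 at D22 (median 4.74), 5.98 to 7.32 at D25 (median 6.48) and 5.85 to 10.2 at D30 (median 7.28), with overlapping groups and a log2 fold change of 0.72 ± 0.21 (adjusted p = 0.00818). Its call ended without D20 organoid 1, 2, 4, 5 or 6, D25 organoid 3 or 4, or D30 organoid 1, 3, 5 or 6, with adjusted p up to 0.02719. It also ended with the replicate number as a block (adjusted p = 0.01448), with annotated genes only (0.01068), without the filter on low counts (0.01901) and with the compared timepoints only (0.01901). Eef2k, the kinase that switches eEF2 off, had widely spread organoids, at 8.89 to 17.7 at D20 (median 14.2), 4.26 to 12.2 at D22 (median 7.75), 6.6 to 22.4 at D25 (median 9.91) and 4.49 to 21.8 at D30 (median 15.8). Its log2 fold change was 0.11 ± 0.30, and -0.0089 with the fit on annotated genes only. Eef1akmt2 had a log2 fold change of 0.31 and did not pass.

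**Figure D5:**
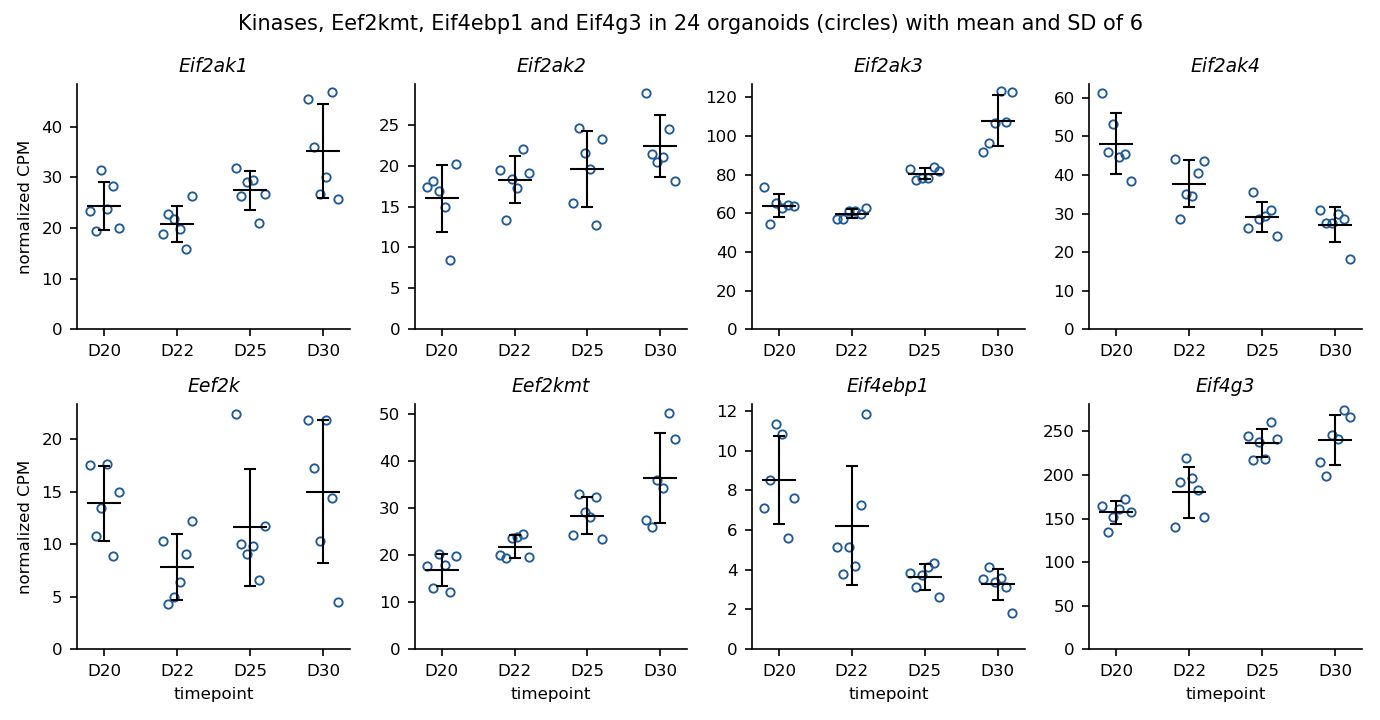
Normalized CPM (linear axes from 0, 1 scale per gene) of the 4 eIF2 kinases, Eef2k, Eef2kmt, Eif4ebp1 and Eif4g3 by timepoint, with circles for the 24 organoids and bars for the mean and SD of 6. Eif2ak3 climbs to a median of 107 at D30 while Eif2ak4 declines to 28.1, and the organoids of Eef2k spread widely.

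Of the 6 remaining tested genes, Eif2a was lower and Eif2d higher. Eif2a, an initiator tRNA carrier for uncommon start sites that is distinct from the alpha subunit of eIF2, ranged from 87.4 to 98.4 normalized CPM at D20 (median 91.1), 65.5 to 84.6 at D22 (median 81.3), 55.8 to 74.5 at D25 (median 59.9) and 49.5 to 57.8 at D30 (median 53.8). All later organoids were below D20 (log2 fold change -0.78 ± 0.09, adjusted p = 1.417e-08), and an exon of Serp1 overlaps the gene on the opposite strand. Eif2d, which can place initiator tRNA and recycles ribosomes, ranged from 15.7 to 20.6 at D20 (median 17.0), 14.5 to 28.2 at D22 (median 20.9), 21.1 to 26.0 at D25 (median 23.9) and 19.5 to 26.4 at D30 (median 24.2). Those groups overlapped, with a log2 fold change of 0.45 ± 0.13 (adjusted p = 0.005876). The call ended without D20 organoid 1, 2, 3 or 5 or D30 organoid 2, 4, 5 or 6, with adjusted p up to 0.01488. It also ended with annotated genes only (adjusted p = 0.01045), without the filter on low counts (0.0202) and with the compared timepoints only (0.01005). Eef1e1, Eif1ad, Eif4a3 and Eif6 had log2 fold changes between -0.26 and 0.03 and did not pass.

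The steps between neighbouring timepoints were compared in the same fit. Most of the genes called between D30 and D20 passed in no single step, so these steps do not date their differences. From D20 to D22, 1 gene was higher and 3 were lower, 6.25% of the 64 against 1.90% of all features and 3.32% of annotated genes, and all 4 were elongation factors. By direction, 2.56% of annotated genes were higher and 0.763% were lower. The organoids did not overlap for 2 lower genes, Eif1ad and Eif2a, neither of which passed the test, while 2.36% of annotated genes were separated upward and 2.38% downward. Eef1a2 was higher (log2 fold change 0.77 ± 0.17, adjusted p = 0.005202), and Eef1b2 (-0.58 ± 0.13, adjusted p = 0.004812), Eef1a1 (-0.51 ± 0.11, adjusted p = 0.00635) and Eef1d (-0.59 ± 0.14, adjusted p = 0.009436) were lower. None of these 4 calls held in every omission of 1 organoid, with adjusted p up to 0.03639. Eef1b2 was lost without D20 organoid 1 or 2 or D22 organoid 2, 3, 4 or 5. Eef1a1 was lost without D20 organoid 1, 2, 3 or 4 or D22 organoid 2, 3, 4 or 5, and Eef1a2 without D20 organoid 1, 2, 3 or 5 or the same D22 organoids. Eef1d was lost without any 1 organoid of D20, D22 organoid 1, 2, 3 or 4, or D25 organoid 1, 2, 4, 5 or 6. Without D22 organoid 6, between these timepoints 1 gene was higher and 6 were lower.

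From D22 to D25, 3 genes were higher and 4 lower, 10.9% of the 64 against 5.28% of all features and 10.2% of annotated genes (7.33% higher and 2.92% lower). The organoids did not overlap for 1 higher gene (Eif2ak3) and 3 lower genes (Eef1b2, Eef2 and Eif3a), against 7.11% and 2.76% of annotated genes. Eef1a2 (0.73, adjusted p = 0.003421), Eif2ak3 (0.43, adjusted p = 0.001179) and Eif4g3 (0.39, adjusted p = 0.007403) were higher on the log2 scale. Eef1b2 (-0.64, adjusted p = 0.001055), Eef1a1 (-0.54, adjusted p = 0.001916), Eif3e (-0.49, adjusted p = 0.002183) and Eef2 (-0.44, adjusted p = 0.009606) were lower. The calls of Eif3e, Eef1b2, Eif2ak3 and Eef1a1 held in all 24 omissions of 1 organoid. That of Eef1a2 ended without D22 organoid 1 or 6 or D25 organoid 1 (adjusted p up to 0.01419), and that of Eif4g3 without D22 organoid 1, 4, 5 or 6 or D25 organoid 1, 3, 4, 5 or 6 (up to 0.02866). The call of Eef2 ended in 15 omissions, namely D20 organoid 2, 3, 4 or 5, D22 organoid 1, 4, 5 or 6, D25 organoid 1, 2, 3, 4 or 6, and D30 organoid 2 or 5 (up to 0.04148).

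From D25 to D30, 1 gene was higher and 2 were lower, 4.69% of the 64 against 3.51% of all features and 7.38% of annotated genes, and no elongation factor was among them. Of annotated genes 4.55% were higher and 2.83% lower. The organoids of Eif2ak3 and Eif1a were higher without overlap, as were 4.46% of annotated genes, and 0 of the 64 genes was lower without overlap, against 3.06%. Eif2ak3 rose again (0.42 on the log2 scale, adjusted p = 0.001402), and its call held in all 24 omissions. Eif4a1 (-0.32, adjusted p = 0.005764) and Eif4e2 (-0.37, adjusted p = 0.005786) were lower. Eif4a1 lost its call without D20 organoid 1 or 5, D22 organoid 1, 4 or 5, D25 organoid 2, 3 or 5, or D30 organoid 2, 3, 4 or 6 (adjusted p up to 0.02367). Eif4e2 lost it without D20 organoid 1 or 5, D22 organoid 1, 4 or 5, D25 organoid 3, 5 or 6, or D30 organoid 1, 2 or 3 (up to 0.02597).

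Among the 8 called genes with the most negative log2 fold changes, the mean was close to its D30 value by D25. At D25 the mean had covered 92.5% of the difference between D20 and D30 for Eef1b2, 92.3% for Eef2, 91.3% for Eef1a1, 91.4% for Eif3e, 93.0% for Eif4ebp1, 90.4% for Eif2ak4 and 87.7% for Eif2s2, and 76.4% for Eif2a. The 8 called rises differed more among themselves, with 97.2% covered for Eif2d and 95.9% for Eif4g3, 66.6% for Eef1a2, 62.7% for Eef1akmt1 and 59.2% for Eef2kmt, but 37.4% for Eif2ak3, 28.3% for Eif2ak1 and 27.3% for Eif1a. These percentages describe group means and were not tested.

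Besides Eef1a2 and Eef1a1, 7 pairs of related genes were compared by their log2 ratio at D30 minus that at D20, as a description with no test. The ratio of Eif4g3 to Eif4g1 was higher by 0.56 without overlap between the groups. The ratios of Eif4a2 to Eif4a1 (0.21), Eif5a2 to Eif5a (0.25), Eif1b to Eif1 (0.22), Eif4ebp2 to Eif4ebp1 (0.56), Eif4e3 to Eif4e (-0.69) and Eif2s3y to Eif2s3x (-0.29) overlapped between D20 and D30.

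Per exon length, the order of the levels over all organoids was led by Eef1a1 (588 normalized CPM per kilobase), Eef2 (373), Eef1b2 (244), Eif4a2 (121), Eif4b (101) and Eif3c (95.7). At the other end, 3 genes were too low to test. Eif4e1b, a cap-binding relative best known from oocytes, had 2 reads in all 24 organoids. Eef1akmt3, a lysine methyltransferase for eEF1A, had 24 reads and Eif4ebp3, a further eIF4E inhibitor, had 53 in all organoids together.

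Other genes of the pathway, from lists that do not include the 67, were counted in the same fit between D30 and D20. In that comparison 25.1% of annotated genes were higher and 16.7% lower, and 26.8% of all features were called. The lists are too short to set their counts apart from these shares. Of 5 genes for poly(A) binding, Pabpc4, Pabpc1 and Paip2 were lower (log2 fold changes -1.05, -0.98 and -0.67) and the other 2 did not pass. Among 12 genes for mTORC1 and cap kinases, Mknk1, a kinase of eIF4E, Deptor, an inhibitor of mTOR, and Mtor itself were higher (1.80, 0.87 and 0.62), and Larp1, which binds TOP messages, was lower (-0.50). Of 9 enzymes that make hypusine on eIF5A or diphthamide on eEF2, Dohh and Dhps, both of the hypusine route, were higher (1.15 and 0.55) and Dph5, of the diphthamide route, was lower (-1.37). In the list for termination and recycling, 2 of 8 were higher, Mcts1 (0.94) and Gspt2 (0.46), and 2 of 6 mitochondrial translation factors, Mtif3 (0.48) and Gfm1 (0.46), were higher as well. Neither of the 2 regulatory subunits of the eIF2 phosphatase passed. The median log2 fold changes of these lists were -0.67, 0.05, -0.02, 0.05, 0.29 and -0.06 in that order, against 0.10 over annotated genes.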

How the data were processed

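The deposited values are whole-number counts of reads per feature, made by the authors from reads trimmed with cutadapt (1.5), aligned with HISAT2 to GRCm38/mm10, assembled with StringTie (1.3.3) and counted with HTSeq (0.6.1), and not normalized. The paper describes strand-specific libraries. Whether the counting used the strand is not given in the sources used here, and reads aligning to several places were left out. Uncertain are therefore 28 of the 67 genes, which overlap another gene's exon (13 on the same strand, 18 on the opposite strand), and genes with near-identical copies. Library groups and numbers come from the sample labels. Features under a base mean of 10 were left out, and the rest were scaled with TMM and tested in 1 fit of 24 organoids with edgeR's quasi-likelihood test (4.0.16, R 4.3.3), with Benjamini-Hochberg adjustment over 46949 features and a threshold of 0.01. Standard errors were derived from the test statistic. The ratio of Eef1a2 to Eef1a1 was computed after adding 0.5 counts to each and tested by exact permutation. The scripts were tested on simulated data. Figures were drawn with matplotlib (3.10.9) in Python (3.11.15).

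Values in every group are given for the 8 largest rises and 8 largest falls between D30 and D20 among genes that passed the test, the 6 highest genes per exon length, 8 paralog pairs, the eIF2 kinases and Eef2k. Ranges at D20 and D30 of other called genes lie outside this rule. The gene list, the marker lists and the other lists were chosen with earlier results of these data known. Numbers of organoids did not pair the timepoints: deviations of same-numbered organoids correlated between -0.217 and 0.391. Organoids of a timepoint differed beyond sampling noise. Depth was 13634846 to 19477108 reads per organoid, limits at low counts cover counting error only, and the biological coefficient of variation was 0.3846. Alternatives were DESeq2's test (1.42.0, the study's tool), its size factors, no filter, annotated genes only, the compared timepoints only, a replicate block and the omission of each organoid. The start window of 1 further gene is not reported here.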

Additional observations from a re-analysis of the deposited data

Results flagged for a closer look

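In 10 of the 128 groups of 6 organoids checked for the named genes, 1 organoid stood apart, with a gap to its neighbour above Dixon's critical value. Chance gives about 1 in 20 groups. D20 organoid 1 had the lowest Eef1a2 level, 20.98 normalized CPM against 32.8 to 38.2 in the other 5, and the highest Eef1b2 level, 1169 against 912 to 1006. D22 organoid 6 had the highest Eef1b2 level, 1020 against 502 to 658, and the highest Eif1a level, 84.0 against 65.2 to 70.9. D20 organoid 2 was highest for Eif3e, at 420 against 323 to 358, and for Eif4a1, at 465 against 384 to 414. D25 organoid 2 was highest for Eif4b, at 442.5 against 357 to 384, and D25 organoid 1 for Eef2k, at 22.4 against 6.6 to 11.7. The lowest level stood apart for Eif2ak4 in D30 organoid 6, at 18.3 against 27.5 to 31.0, and for Eif4e3 in D30 organoid 4, at 4.75 against 7.02 to 8.09.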

How the results depend on the processing

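Between D30 and D20, 24 of the 28 calls held in every omission of 1 organoid, with 5 to 8 genes higher and 19 to 22 lower, and the joint test called 26 to 30. The steps varied more: 0 to 1 higher and 0 to 6 lower from D20 to D22, 1 to 4 and 3 to 8 from D22 to D25, and 1 to 2 and 0 to 2 from D25 to D30. DESeq2's test called 5 genes lower from D20 to D22, and 2 higher and 0 lower from D25 to D30. Between D30 and D20 it called 11 higher and 18 lower. With DESeq2's size factors in edgeR, 2 were higher and 0 lower from D25 to D30, and 9 higher and 18 lower between D30 and D20. Without the filter on low counts, 0 were higher and 0 lower from D25 to D30, and 5 were higher between D30 and D20. With annotated genes only, 13 were lower from D22 to D25, and 5 were higher between D30 and D20, where the value turned to -0.029 for Eif3c, -0.081 for Eif1, -0.039 for Eif4g1 and -0.0089 for Eef2k, none of which passed. With the compared timepoints only, 0 were lower from D25 to D30, and 5 were higher between D30 and D20. The cause was not tested. Shares of annotated genes called under each alternative are not given here. These counts thus cannot set the translation factors apart from a change in all calls. Leaving out 1 organoid turned the sign for the same 4 genes, with values from -0.0078 to 0.11 for Eif3c, -0.017 to 0.042 for Eif1, -0.0064 to 0.10 for Eif4g1 and -0.030 to 0.30 for Eef2k. With the replicate number as a block, although the numbers do not pair the organoids and 0 of them were closest to their own number, 6 genes were higher and 20 lower between D30 and D20, without Eef1akmt1 and Eif2ak1, while the steps kept 1 and 3, 3 and 4, and 1 and 2, and the joint test called 27. The difference of the Eef1a2 to Eef1a1 ratio was 2.93 to 3.22 in the omissions and 3.08 after adding 10 counts, and the replicate block gave an exact permutation p of 0.0312, the smallest that 64 sign changes allow. At 3 counts or fewer, a difference was not detectable at this depth.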

Other observations

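The levels of 5 elongation factors (Eef1a1, Eef1b2, Eef1d, Eef1g and Eef2) in single organoids were set beside the photoreceptor and progenitor sums in normalized CPM. The comparison was chosen after the values were seen. D20 organoid 1 was the highest of its timepoint for 5 of 5 genes and the lowest for Eef1a2, with the lowest photoreceptor sum of D20 (927) and the highest progenitor sum (1125). D20 organoid 6 was the lowest for 4 of 5, with neither sum at an extreme (1386 and 885). D22 organoid 6 was the highest for 4 of 5, with the lowest photoreceptor sum of D22 (1741) and the highest progenitor sum (656), and D22 organoid 3 was the lowest for 3 of 5, with the highest photoreceptor sum (3819) and the lowest progenitor sum (408). At D25, organoid 5 was the highest for 4 of 5 (sums of 4232 and 320) and organoid 4 the lowest for 3 of 5 (4337 and 218), and none of these sums was at an extreme. At D30, organoid 1 was the highest for 3 of 5, with the lowest photoreceptor sum (3088) but not an extreme progenitor sum (196). Organoid 4 was the highest for 2 of 5, with neither sum at an extreme (4856 and 202.9). Organoid 3 was the lowest for 3 of 5, with the lowest progenitor sum (139) but not the highest photoreceptor sum (5303). Organoid 6 was the lowest for 2 of 5, Eef1a1 and Eef2, with the highest photoreceptor sum (5449) but not an extreme progenitor sum (156.5). The pattern at D22 was thus not seen at D25. Other sums stood at extremes too. The neuronal sum was lowest in D20 organoid 1 (909) and D22 organoid 6 (1214), and highest in D22 organoid 3 (1846). At D30 it went the other way, highest in organoid 4 (3388) and lowest in organoid 6 (2522). D30 organoid 1 had the highest sums of Müller glia (4101) and dividing cells (492.5). The part of the cell types in these levels was not tested.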
